A study of Mus musculus with 24 samples.

Results

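Activating transcription factor 4 (ATF4) and the genes it serves, stress response genes and genes for making and importing amino acids, were examined in cultured mouse epidermal progenitors. The group was set as a list of 36 gene symbols, with no threshold on the values but with earlier results of these data known. Of these, 34 were found among the 10818 genes of the deposited table, and *Slc7a5* and *Eif2s2* were not analysed here. All 34 passed the filter on low values in both experiments. Poly(A) RNA was sequenced from 8 groups of 3 libraries. In the shRNA experiment, wild-type primary keratinocytes were infected with a lentivirus carrying a scrambled hairpin (*shScr*) or a hairpin against *Id1* (*shId1*). In the overexpression experiment, keratinocytes of the same kind were infected with a lentivirus for inducible ID1 and were grown without doxycycline (-dox) or with it for 3 days (+dox), so that the controls carried the virus too. Each of these was sampled in low calcium (0 h) and after 24 h in 1.5 mM calcium, a switch that starts keratinocyte differentiation. No group received doxycycline without the ID1 construct, so effects of ID1 and of doxycycline cannot be told apart. Nor was any group held in low calcium until 24 h, and the switch and the hours in culture cannot be told apart. In the deposited table the 6 *shScr* libraries stand in columns named H2BGFP, a vector that the methods give as a backbone for hairpins. That name does not say *shScr*, and they were assigned by elimination after the other 18 columns had matched sample titles, so every comparison with *shScr* rests on this. The cells were established on 3T3-J2 fibroblast feeders.

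ATF4 is the transcription factor of the integrated stress response. When kinases such as PERK or GCN2 phosphorylate the translation factor eIF2, most protein synthesis slows while *Atf4* mRNA is translated more, and ATF4 then raises genes for amino acid synthesis, amino acid import and redox balance together with genes that end the response or promote cell death. Its protein level is set largely by translation, which mRNA levels do not show. ATF4 binds composite sites in which part of a C/EBP site meets part of an ATF site, and TGATGNAA spells out the core of such a site.

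To show which members carry those letters, the window from 250 bases before to 50 bases after each annotated start was searched on both strands for TGATGNAA (RefSeq, GRCm38.p6). A window was found for 30 members, and 10 of them (33.33%) held a match. Among the 8342 genes of the deposited table with a window, 225 (2.7%) held one, as did 1304 of 32851 windows (3.97%) of all genes. The members were listed as genes that ATF4 serves, so a share above that of all genes was likely beforehand. The stretches below come from members whose match lies wholly before the start, and are written along the strand of the gene with the matched letters in capitals.

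Chac1: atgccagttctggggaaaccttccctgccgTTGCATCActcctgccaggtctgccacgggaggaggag
Slc7a11: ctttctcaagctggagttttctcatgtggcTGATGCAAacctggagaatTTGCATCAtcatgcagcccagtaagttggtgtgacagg
Asns: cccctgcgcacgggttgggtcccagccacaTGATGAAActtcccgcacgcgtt
Pycr1: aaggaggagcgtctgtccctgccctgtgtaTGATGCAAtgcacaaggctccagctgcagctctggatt
Got1: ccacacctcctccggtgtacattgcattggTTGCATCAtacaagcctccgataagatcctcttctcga
Nupr1: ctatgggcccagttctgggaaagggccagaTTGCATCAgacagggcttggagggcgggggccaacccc
Herpud1: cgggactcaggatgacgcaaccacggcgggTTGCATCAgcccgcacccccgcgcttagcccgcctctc
Vldlr: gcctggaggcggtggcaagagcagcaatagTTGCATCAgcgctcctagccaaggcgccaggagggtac

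The stretches span chr2:119351019-119351086 (*Chac1*, plus strand), chr3:50443623-50443709 (*Slc7a11*, minus), chr6:7693210-7693262 (*Asns*, minus), chr11:120643814-120643881 (*Pycr1*, minus), chr19:43524670-43524737 (*Got1*, minus), chr7:126625543-126625610 (*Nupr1*, minus), chr8:94386287-94386354 (*Herpud1*, plus) and chr19:27216790-27216857 (*Vldlr*, plus). *Slc7a11* held a pair of matches that face each other, the first at -66 and the second at -47 from the start. TTGCATCA is TGATGCAA read on the other strand, and *Asns* held TGATGAAA. *Trib3* and *Slc1a4* also held a match, which reaches the start or the transcribed part and is not shown. Of the 9 members with a window that rose more than 2-fold with doxycycline at 0 h, 4 held a match, against 6 of the 21 others. *Nupr1*, *Herpud1* and *Vldlr* held one and are among the members with the smallest responses to doxycycline at 0 h, described below. A match is a run of letters and was not tested for binding.

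The table held 21442371 to 35720140 reads per library. Values are CPM, reads as a share of a library size that was scaled by the trimmed mean of M-values (TMM), and are not divided by gene length, so a gene is compared between libraries and not with another gene. Libraries of 1 group correlated with r between 0.9756 and 0.9960. In each *shScr* and *shId1* group replicate 1 was the least like the others. In +dox at 24 h replicate 3 stood apart (r of 0.9826 and 0.9890, against 0.9945 between replicates 1 and 2). Mitochondrially encoded genes took 1.33% of the CPM in that library, against 0.953 and 0.986% in replicates 1 and 2. All 7 basal keratinocyte markers listed were in the table, as were 7 of 11 suprabasal markers (*Krt1*, *Sbsn*, *Lor* and *Flg* were not analysed here) and 1 of 12 fibroblast markers, *Postn*. *Id1*, the targeted gene, was at 60.7, 103 and 111 CPM in replicates 1, 2 and 3 of *shScr* and at 25.7, 19.7 and 39.0 CPM in *shId1* at 0 h (-1.69 ± 0.38, adjusted p = 0.018), and the groups did not overlap. At 24 h it was at 27.9, 44.8 and 69.6 CPM in *shScr* and 17.6, 40.1 and 29.7 CPM in *shId1*, which overlapped (adjusted p = 0.26). With doxycycline *Id1* rose at 0 h from 10.5, 13.2 and 7.15 to 41.6, 107 and 73.0 CPM (2.72 ± 0.27, adjusted p = 2.5e-06), while at 24 h it was at 73.9, 67.5 and 59.7 CPM without and 106, 96.0 and 76.1 CPM with doxycycline (adjusted p = 0.23). Here and below, the value before ± is a log2 fold change, the value after it is its standard error, and adjusted p is from limma with Benjamini-Hochberg adjustment over all genes tested. A gene is said to have risen or fallen where the adjusted p was under 0.05. Library values are given in the order of replicates 1, 2 and 3, and n = 3 in every group of the limma fits. The count test with edgeR used 18 libraries, which left 1 library for +dox at 0 h, 1 for *shId1* at 24 h, 2 each for *shId1* at 0 h and *shScr* at 24 h, and assumes that a lone library varies like the other groups, so it weighs little in comparisons of those groups.

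**Figure D1:**
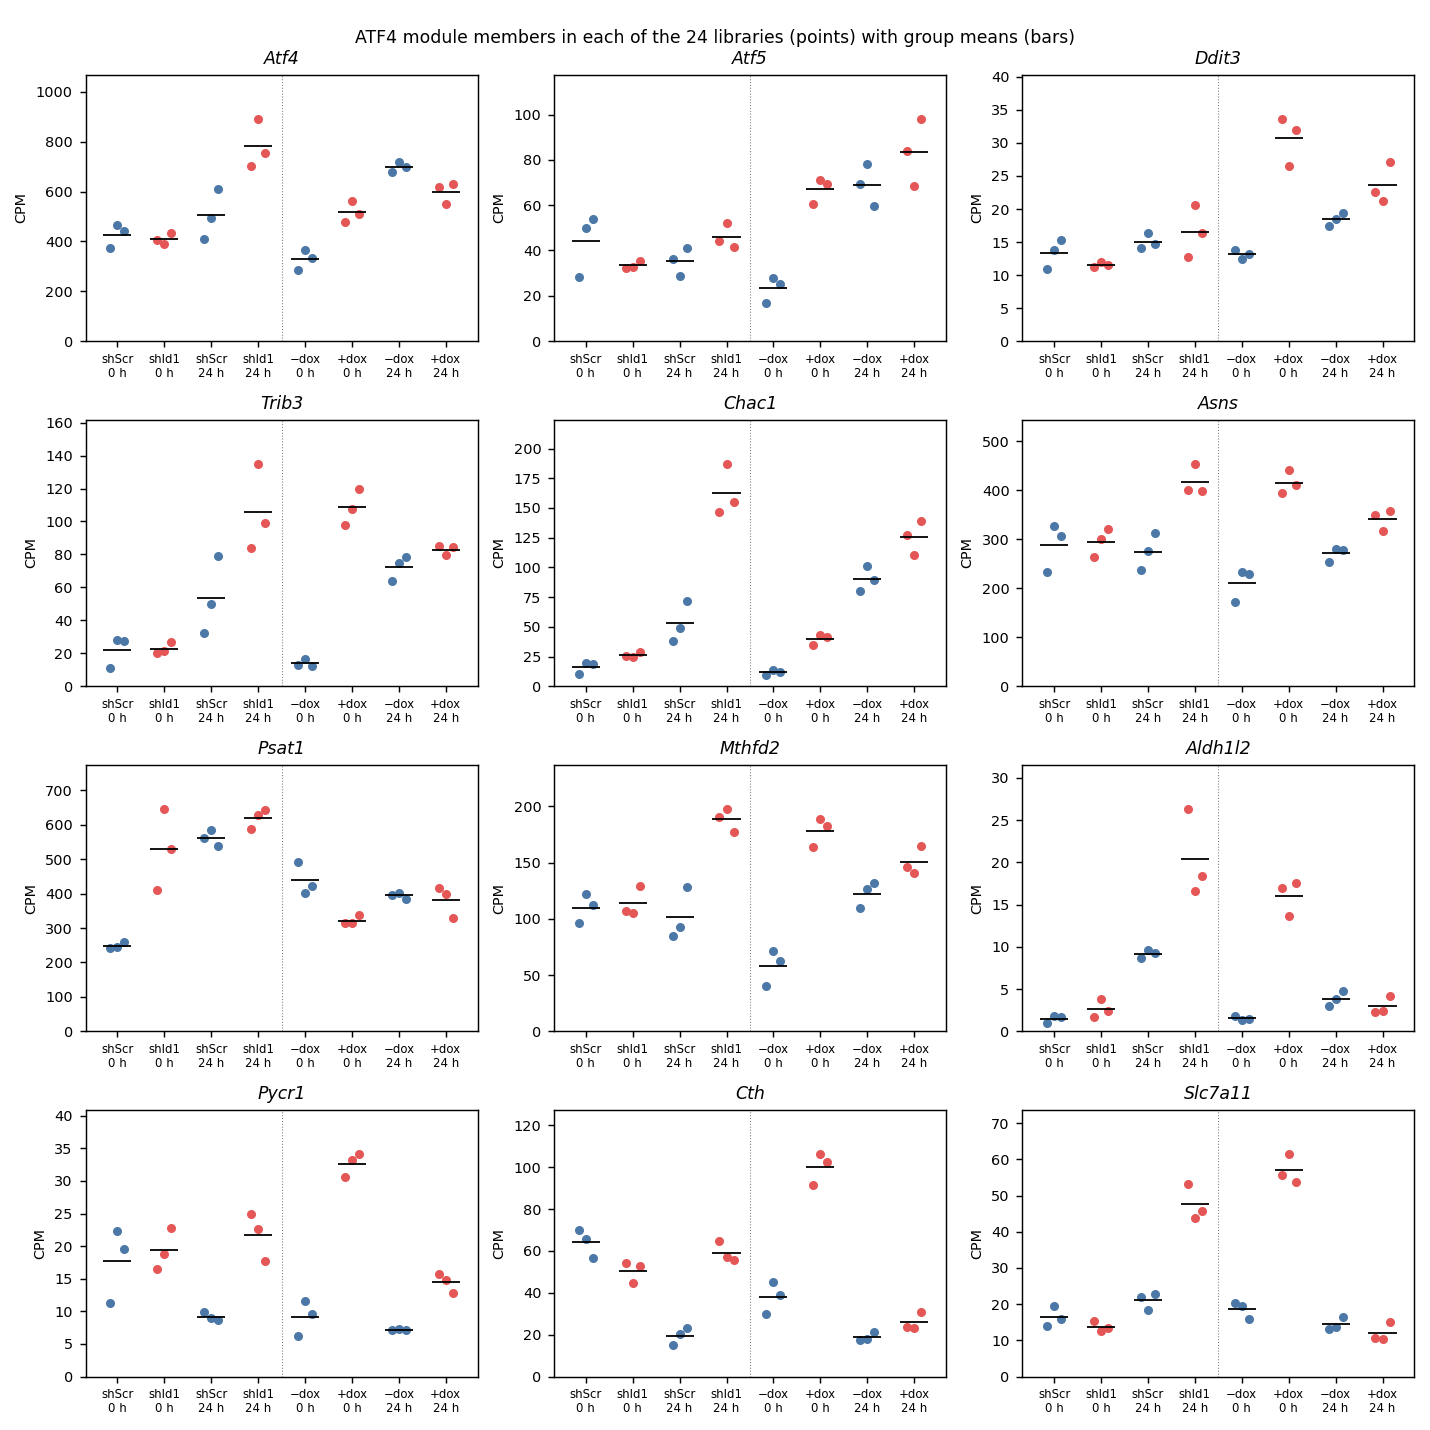
Level of 12 members (CPM, linear axes from 0) in each of the 24 libraries, with points for libraries in the order of replicates 1, 2 and 3, black bars for group means, blue for controls and red for *shId1* or +dox. *Trib3*, *Aldh1l2*, *Slc7a11* and *Cth* are each high in the +dox libraries at 0 h and closer to the -dox libraries at 24 h, and *Chac1* is highest in *shId1* at 24 h.

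Induction of ID1 with doxycycline in low calcium was compared first, to ask how the module stood in progenitors before differentiation. Of the 34 members, 25 rose and 2 fell, and 11 rose more than 2-fold. Among all genes 34.3% passed in either direction, 20.5% rose and 13.8% fell, with 4.26% rising and 1.01% falling more than 2-fold. The median log2 fold change was 0.67 over the members and -0.00 over all genes. The members that rose most were *Aldh1l2*, *Trib3*, *Pycr1*, *Aldh18a1* and *Chac1*, so that a feedback inhibitor, a glutathione-degrading enzyme, the proline pathway and a mitochondrial folate enzyme moved together. The same libraries also differed in keratinocyte markers. The summed level of the 7 suprabasal markers was 842 to 1030 CPM in -dox and 573 to 636 CPM in +dox. Of these 7 markers 4 fell and 1 rose. Of the 7 basal markers 3 fell and 1 rose, their sum being 33770 to 35542 CPM in -dox and 27894 to 31788 CPM in +dox. Mitochondrially encoded genes took 3.20 to 3.47% of the CPM in -dox and 2.84 to 3.03% in +dox. The part of these differences in the changes of the module was not tested.

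Among the regulators, *Atf4* itself was at 284, 367 and 333 CPM without and 478, 561 and 509 CPM with doxycycline at 0 h, and the groups did not overlap (0.66 ± 0.10, adjusted p = 0.00014). *Atf5*, a relative of *Atf4* that is itself under translational control by eIF2 phosphorylation, rose from 17.0, 27.8 and 25.4 to 60.5, 71.2 and 69.5 CPM (1.53 ± 0.17, adjusted p = 7.4e-06). *Ddit3*, which encodes the pro-apoptotic factor CHOP, rose from 13.7, 12.5 and 13.1 to 33.6, 26.5 and 32.0 CPM (1.19 ± 0.12, adjusted p = 2.6e-06). All 3 factors were thus higher in every +dox library than in any -dox library. *Trib3*, a pseudokinase that binds ATF4 and CHOP and restrains them, showed one of the largest changes of the module. Its level was 13.2, 16.6 and 12.2 CPM without and 98.0, 108 and 119.8 CPM with doxycycline (2.92 ± 0.12, adjusted p = 5.6e-10). *Chac1*, which cleaves glutathione and is raised by ATF4 and CHOP, went from 9.52, 13.4 and 11.7 to 34.9, 43.0 and 41.8 CPM (1.75 ± 0.13, adjusted p = 2e-07). Its promoter holds the match printed above. *Ppp1r15a* (GADD34), the phosphatase subunit that reverses eIF2 phosphorylation, was at 17.0, 14.6 and 16.5 against 22.9, 21.1 and 22.3 CPM (0.45 ± 0.10, adjusted p = 0.002), a rise of less than 2-fold. *Sesn2*, an inhibitor of mTORC1 in stress, rose from 30.2, 22.2 and 22.0 to 34.1, 37.3 and 41.0 CPM (0.60 ± 0.12, adjusted p = 0.0013), and *Eif4ebp1*, which holds back cap-dependent translation, from 102, 133 and 118 to 191, 239.6 and 229 CPM (0.90 ± 0.11, adjusted p = 1.7e-05). The stress genes did not all follow. *Ddit4*, another mTORC1 inhibitor, was at 55.9, 47.4 and 50.4 against 46.2, 40.3 and 66.9 CPM (-0.03 ± 0.14, adjusted p = 0.88), *Nupr1*, a stress-induced chromatin protein, had group means of 54.2 and 50.9 CPM (-0.07 ± 0.18, adjusted p = 0.79), and the groups overlapped for both. *Eif2ak3*, which encodes the kinase PERK, had group means of 27.7 and 23.2 CPM and did not pass (-0.25 ± 0.13, adjusted p = 0.15). *Herpud1*, a protein of endoplasmic reticulum-associated degradation, rose slightly, from 129.7, 121 and 125 to 145, 142 and 154 CPM (0.23 ± 0.08, adjusted p = 0.044), and kept its call in 8 of 18 alternatives, the replicate block and median-ratio scaling being among those that lost it.

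Serine synthesis begins with *Phgdh*, continues with *Psat1* and ends with *Psph*, and its 3 enzymes did not move together. *Phgdh* rose from 119, 182 and 153 to 208, 269 and 246 CPM (0.68 ± 0.14, adjusted p = 0.002) and *Psph* from 23.3, 32.9 and 32.6 to 83.3, 99.0 and 94.4 CPM (1.64 ± 0.12, adjusted p = 1.1e-07). *Psat1*, in contrast, fell from 493, 401 and 422 to 314, 313 and 336 CPM (-0.44 ± 0.10, adjusted p = 0.0028), with every +dox library below every -dox library. In the mitochondrial folate pathway that uses serine, *Mthfd2* rose from 40.2, 71.5 and 62.4 to 164, 189 and 182 CPM (1.65 ± 0.16, adjusted p = 2.1e-06). *Aldh1l2*, which oxidizes 10-formyltetrahydrofolate in mitochondria, had the largest log2 fold change of the 34 members, from 1.80, 1.31 and 1.51 to 17.0, 13.7 and 17.5 CPM (3.02 ± 0.21, adjusted p = 9e-08). It was also the member with the lowest median level per kilobase of exon. *Mthfd1l* rose from 61.8, 83.9 and 74.1 to 102, 131 and 108 CPM (0.63 ± 0.16, adjusted p = 0.0064) and *Shmt2* from 192, 248 and 206 to 255, 360.2 and 314 CPM (0.52 ± 0.12, adjusted p = 0.0035), both mitochondrial. *Shmt1*, the cytosolic counterpart of *Shmt2*, was at 55.3, 68.0 and 65.9 against 51.6, 61.4 and 56.8 CPM and did not pass (-0.15 ± 0.15, adjusted p = 0.46).

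Genes for proline and asparagine synthesis rose as well. *Aldh18a1*, which makes the proline precursor from glutamate, went from 38.2, 53.0 and 44.7 to 144, 159.7 and 161 CPM (1.77 ± 0.10, adjusted p = 1.8e-08). *Pycr1*, the last enzyme of that path, went from 6.26, 11.6 and 9.59 to 30.7, 33.1 and 34.1 CPM (1.82 ± 0.17, adjusted p = 1.3e-06). *Asns*, asparagine synthetase, was at 171, 234 and 229.8 CPM without and 395, 441 and 410.0 CPM with doxycycline (0.98 ± 0.11, adjusted p = 7e-06), just short of 2-fold. *Got1*, the cytosolic aspartate aminotransferase, rose from a mean of 37.9 to 69.1 CPM (0.87 ± 0.11, adjusted p = 3.5e-05), whereas the alanine aminotransferase *Gpt2* was at 190.2, 161 and 182 against 159.5, 159 and 164 CPM (-0.14 ± 0.08, adjusted p = 0.18) and did not pass. *Cth*, which releases cysteine from cystathionine, rose from 29.9, 45.3 and 38.9 to 91.3, 106 and 103 CPM (1.40 ± 0.15, adjusted p = 4.4e-06).

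Of the transporters, the cystine importer changed most. *Slc7a11*, its light chain, was at 20.2, 19.5 and 15.9 CPM in -dox and 55.8, 61.4 and 53.8 CPM in +dox libraries (1.60 ± 0.14, adjusted p = 1e-06). *Slc3a2*, the heavy chain it pairs with, rose from 361, 412 and 398 to 653, 621 and 653 CPM (0.72 ± 0.07, adjusted p = 3.7e-06). Both genes had every +dox library above every -dox library. The neutral amino acid transporters *Slc1a4* (means of 42.9 and 68.7 CPM, 0.68 ± 0.09, adjusted p = 7.1e-05) and *Slc1a5* (13.4, 17.1 and 13.8 against 19.5, 24.9 and 21.2 CPM, 0.55 ± 0.14, adjusted p = 0.0084) rose by less than 2-fold. *Slc38a2*, a sodium-coupled neutral amino acid transporter, fell from a mean of 752 to 599 CPM (-0.33 ± 0.11, adjusted p = 0.032), a call kept in 12 of 18 alternatives and lost without any 1 of 4 of the 6 libraries compared. The cationic amino acid transporter *Slc7a1* did not pass (0.19 ± 0.08, adjusted p = 0.073). *Xpot*, which exports tRNA from the nucleus, rose from 201, 207 and 197 to 252, 251 and 265 CPM (0.34 ± 0.09, adjusted p = 0.0077), and *Vldlr*, a lipoprotein receptor, did not pass (0.04 ± 0.16, adjusted p = 0.88).

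**Figure D2:**
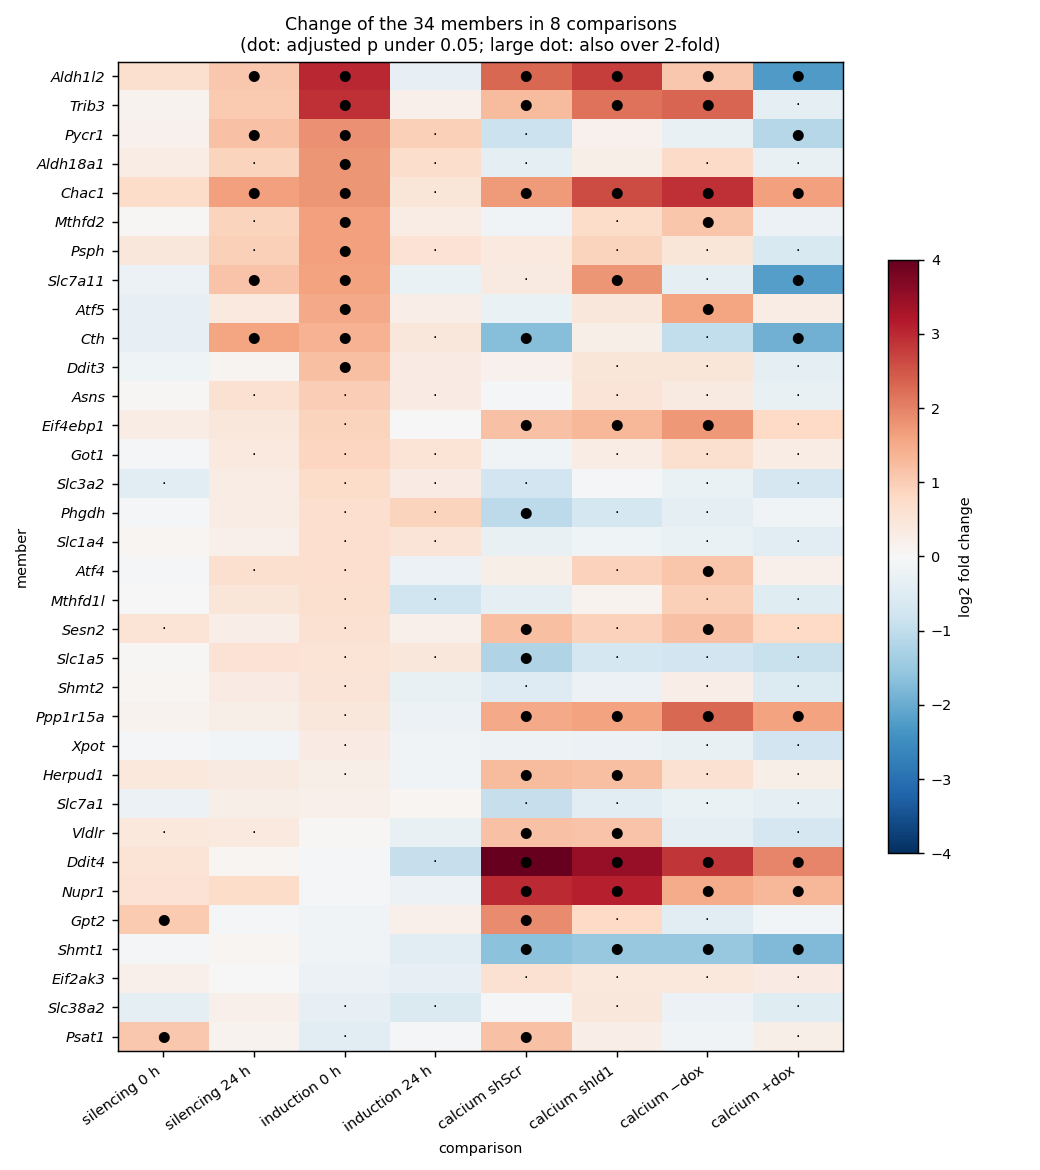
Log2 fold change (colour scale from -4 to 4) of the 34 members, ordered by their change with doxycycline at 0 h, in 8 comparisons (shId1 against shScr, +dox against -dox, and 24 h against 0 h in each arm), with a small dot for adjusted p under 0.05 and a large one where the change was also over 2-fold. Large dots fill 11 cells of the column for induction at 0 h and none of the column for induction at 24 h.

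After 24 h in calcium the same comparison gave smaller differences. Of the 34 members 11 rose and 3 fell, against 10.6% and 10.9% of all genes (21.6% in either direction). By limma 0 members passed with over 2-fold, against 0.964% of all genes upward and 1.15% downward, and also 0 at an unadjusted p under 0.05, while edgeR, with 3 libraries in both groups, called 1 that far, *Pycr1* (1.01 on the log2 scale, named after its value was seen). In the limma fit 20 of the 34 had an adjusted p over the limit. The median log2 fold change of the members was 0.13, against -0.01 over all genes. All 11 that rose had also risen at 0 h, which is 44% of the 25 that rose then. As those 25 are most of the 34 members, a high share was likely beforehand. Over all genes, 20.5% had risen at 0 h, and of those that rose at 24 h 61.9% had risen at 0 h. The members that rose were *Pycr1* (7.11, 7.24 and 7.09 CPM without and 15.7, 14.8 and 12.8 CPM with doxycycline, 0.96 ± 0.17, adjusted p = 0.0011), *Phgdh* (126, 114 and 108 against 237, 233 and 184 CPM, 0.90 ± 0.14, adjusted p = 0.00056), *Aldh18a1* (74.2, 80.4 and 77.9 against 132, 126 and 122 CPM, 0.71 ± 0.10, adjusted p = 0.00029) and, by smaller log2 fold changes, *Psph*, *Got1*, *Slc1a4*, *Chac1*, *Cth*, *Slc1a5*, *Slc3a2* and *Asns* (0.57 to 0.33). Of these calls, *Slc1a5* kept its own in 9 of 18 alternatives, *Asns* in 11, *Cth* in 12 and *Chac1* in 15. Enzymes and transporters of amino acids made up 10 of the 11, *Chac1* being the other. Together with the folate enzymes they are also most of the 34 members, so a high share of them was likely beforehand. *Ddit4* fell from 342, 374 and 398 to 209, 189 and 192 CPM (-0.91 ± 0.14, adjusted p = 0.00046), *Mthfd1l* from 109.8, 139 and 183 to 77.1, 87.7 and 77.1 CPM (-0.80 ± 0.16, adjusted p = 0.0027) and *Slc38a2* from a mean of 635 to 431 CPM (-0.58 ± 0.11, adjusted p = 0.0021). *Atf4* was at 679, 716 and 699 CPM without and 618, 551 and 629 CPM with doxycycline and did not pass (-0.22 ± 0.10, adjusted p = 0.12), and neither did *Atf5* or *Ddit3* (adjusted p = 0.27 and 0.051). In the same libraries 5 of the 7 suprabasal markers fell, their sum being 1893 to 2175 CPM in -dox and 1357 to 1437 CPM in +dox, and mitochondrially encoded genes took 0.838 to 0.908% and 0.953 to 1.33% of the CPM. Their part in the result was not tested.

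The difference between the effects at 24 h and 0 h, tested as an interaction, was past the threshold for 20 members, all with a less positive or more negative effect at 24 h. By limma 0 members passed in the other direction, with 2 at an unadjusted p under 0.05, and 0 by edgeR with the 1 library of +dox at 0 h. Among all genes 10.5% passed, 8.08% in that direction and 2.37% in the other. The median of this difference was -0.67 over the members and -0.02 over all genes. It was largest for *Aldh1l2*, at 3.00, 3.87 and 4.76 CPM without and 2.34, 2.46 and 4.23 CPM with doxycycline at 24 h (difference -3.36 ± 0.30, adjusted p = 7.1e-06). *Trib3* followed, at 63.7, 74.7 and 78.3 against 85.0, 79.6 and 84.3 CPM (difference -2.71 ± 0.17, adjusted p = 4.6e-07), and then *Slc7a11*, at 13.1, 13.8 and 16.3 against 10.6, 10.5 and 15.1 CPM (difference -1.86 ± 0.20, adjusted p = 3.8e-05). For *Trib3* the -dox libraries had come up towards the +dox level by 24 h. For *Slc7a11* the +dox libraries had come down. *Atf4* took part too (difference -0.88 ± 0.14, adjusted p = 0.00086), as did *Atf5*, at 69.5, 78.1 and 59.7 against 84.0, 68.6 and 98.1 CPM (difference -1.26 ± 0.24, adjusted p = 0.003), *Ddit3*, at 17.5, 18.5 and 19.4 against 22.6, 21.2 and 27.1 CPM (difference -0.85 ± 0.17, adjusted p = 0.0038), and *Chac1*, at 79.8, 101 and 89.1 against 128, 111 and 139 CPM (difference -1.27 ± 0.19, adjusted p = 0.0005). In the folate and serine enzymes the 24 h levels without and with doxycycline were 109.7, 126 and 132 against 146, 141 and 165 CPM for *Mthfd2*, 41.4, 41.4 and 39.8 against 61.7, 58.8 and 61.9 CPM for *Psph*, and 248, 282 and 252 against 208, 211 and 210.5 CPM for *Shmt2*. Each had a difference past the threshold, listed in the closing section with the rest and with the calls kept in the fewest alternatives. Other members with such a difference were *Asns* (255, 281 and 278 against 349, 318 and 357 CPM), *Cth* (17.4, 17.8 and 21.2 against 23.7, 23.3 and 30.9 CPM), *Eif4ebp1* (363, 401 and 406 against 407, 383 and 359.6 CPM), *Ppp1r15a* (72.7, 86.1 and 81.7 against 68.9, 64.4 and 72.2 CPM), *Slc3a2* (317, 328 and 317 against 419, 394 and 403 CPM) and *Xpot* (166, 160.1 and 165 against 131, 149.6 and 172 CPM), besides *Aldh18a1*, *Pycr1*, *Ddit4* and *Mthfd1l*. With edgeR, where +dox at 0 h had 1 library, 13 members passed. *Id1* moved in the same way (difference -2.26 ± 0.37, adjusted p = 0.0012), and its level without doxycycline rose from a mean of 10.3 to 67.0 CPM over the 24 h.

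**Figure D3:**
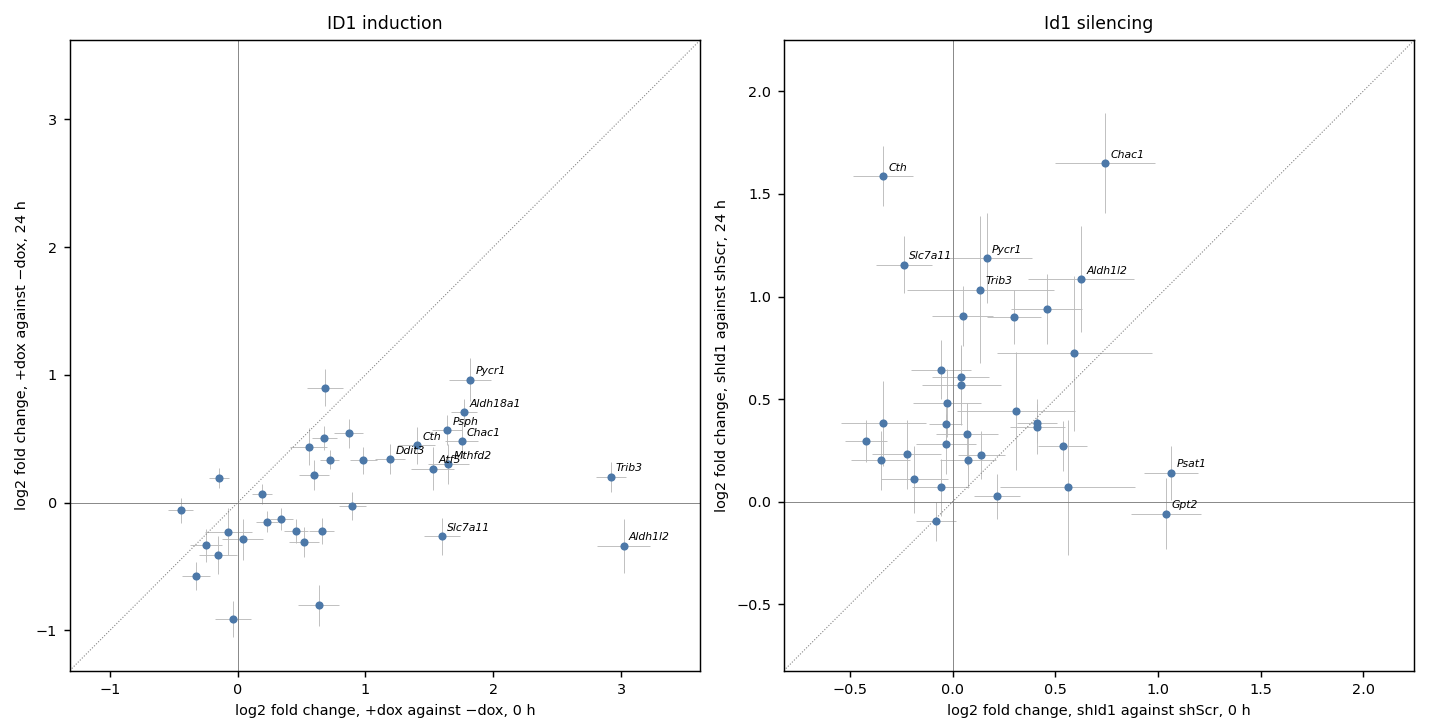
Log2 fold change of the 34 members at 0 h (horizontal) and at 24 h (vertical), for +dox against -dox (left) and *shId1* against *shScr* (right), with bars for 1 standard error and a dotted line of equal change. With doxycycline the members lie mostly below the dotted line, *Trib3* and *Aldh1l2* farthest, and with *Id1* silencing *Cth*, *Chac1*, *Slc7a11* and *Pycr1* lie above it.

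Silencing of *Id1* was compared in the same way, to ask whether the module moved when *Id1* was lowered. At 24 h 12 of the 34 members were higher in *shId1* than in *shScr* and 0 were lower, against 7.9% and 6.72% of all genes (14.6% in either direction). The count of lower members was 0 by limma also at an unadjusted p under 0.05, and 0 by edgeR with the 1 *shId1* library it had. The median log2 fold change was 0.38 over the members and 0.01 over all genes. Of the members 5 rose more than 2-fold, against 2.21% of all genes, while 1.14% of all genes fell that far. *Chac1* rose from 38.1, 49.3 and 71.6 to 146, 187 and 155 CPM (1.65 ± 0.24, adjusted p = 0.0012), *Cth* from 15.3, 20.3 and 23.1 to 65.0, 57.0 and 55.5 CPM (1.59 ± 0.15, adjusted p = 0.0001) and *Pycr1* from 9.97, 8.93 and 8.72 to 25.0, 22.6 and 17.7 CPM (1.19 ± 0.22, adjusted p = 0.0043). *Slc7a11* rose from 22.1, 18.5 and 22.7 to 53.1, 43.8 and 45.9 CPM (1.16 ± 0.14, adjusted p = 0.0004), and *Aldh1l2* from 8.70, 9.58 and 9.23 to 26.3, 16.6 and 18.4 CPM (1.09 ± 0.26, adjusted p = 0.015). Glutathione and cysteine handling (*Chac1*, *Cth*, *Slc7a11*) made up 3 of these 5, and for each of the 5 every *shId1* library lay above every *shScr* library. *Aldh1l2* was not past the threshold with edgeR (adjusted p = 0.15), where *shId1* at 24 h had 1 library. Markers of other cells moved in the same libraries. *Postn*, the fibroblast marker, was at 20.4 to 32.9 CPM in *shScr* and 5.37 to 6.65 CPM in *shId1* (-1.95 ± 0.36, adjusted p = 0.0041), and *Krt20*, the only 1 of 4 Merkel cell markers in the table, was at 18.6 to 30.2 and 61.3 to 73.0 CPM (1.39 ± 0.32, adjusted p = 0.012). The sum of the suprabasal markers overlapped, at 1663 to 2733 and 1583 to 2084 CPM. Their part in the result was not tested.

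*Atf4* was at 409.8, 493 and 610.5 CPM in *shScr* and 702, 891 and 753 CPM in *shId1* at 24 h, without overlap (0.64 ± 0.15, adjusted p = 0.012), and lost its call when only these groups were fitted (adjusted p = 0.065). *Psph* rose from 51.2, 59.4 and 74.3 to 102, 136 and 116 CPM (0.94 ± 0.17, adjusted p = 0.0041), *Mthfd2* from 84.7, 92.8 and 128 to 191, 197 and 177 CPM (0.91 ± 0.15, adjusted p = 0.0021), *Aldh18a1* from 68.7, 58.7 and 77.0 to 139, 124 and 118 CPM (0.90 ± 0.13, adjusted p = 0.0012) and *Asns* from 237, 277 and 312 to 401, 454 and 398 CPM (0.61 ± 0.14, adjusted p = 0.013). *Got1* and *Vldlr* rose by 0.38 and 0.38 on the log2 scale. *Vldlr* kept its call in 15 of 20 alternatives and *Got1* and *Asns* in 19 each. Serine, folate, proline and asparagine enzymes were thus each represented, but not every serine or folate enzyme passed. *Phgdh* (0.28 ± 0.15, adjusted p = 0.22), *Psat1* (0.14 ± 0.13, adjusted p = 0.54), *Mthfd1l* (0.48 ± 0.17, adjusted p = 0.072), *Shmt2* (0.33 ± 0.15, adjusted p = 0.16) and *Shmt1* (0.07 ± 0.14, adjusted p = 0.80) did not. *Trib3* was at 32.5, 50.1 and 78.9 against 83.7, 135 and 99.1 CPM, with every *shId1* library above every *shScr* library, and did not pass (1.03 ± 0.36, adjusted p = 0.075). *Atf5* (36.3, 28.9 and 40.9 against 44.1, 52.1 and 41.7 CPM, 0.38 ± 0.21, adjusted p = 0.25) and *Ddit3* (14.1, 16.3 and 14.7 against 12.8, 20.6 and 16.3 CPM, 0.11 ± 0.16, adjusted p = 0.72) did not pass either. With the replicate number as a block within each time, which these libraries share, 20 members were higher and 0 lower. Of the 12 that rose here 11 had also risen with doxycycline at 0 h, all but *Vldlr*, which is 91.7% of the 12 and 44% of the 25. Over all genes, 33.2% of those higher in *shId1* at 24 h had risen with doxycycline at 0 h. With doxycycline at 0 h 25 of the 34 members rose, against 20.5% of all genes, so most of any 12 members would be shared. *Id1* had means of 47.4 CPM in *shScr* and 29.1 CPM in *shId1* in the first comparison, which did not pass, and rose in the second, and these comparisons share no libraries.

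At 0 h silencing moved fewer members. Of the 34, 4 rose and 1 fell, against 4.03% and 3.44% of all genes (7.47% in either direction), and 2 rose more than 2-fold, against 1.4% of all genes upward and 0.538% downward. The median log2 fold change was 0.07 over the members. *Psat1*, the phosphoserine aminotransferase, rose from 241, 245 and 259 to 410.3, 645 and 530.3 CPM (1.06 ± 0.13, adjusted p = 0.00069), and *Gpt2* from 44.7, 63.7 and 69.2 to 95.3, 146 and 125 CPM (1.04 ± 0.17, adjusted p = 0.0033). Both are aminotransferases, and both had every *shId1* library above every *shScr* library. *Sesn2* rose from 17.9, 22.0 and 19.7 to 30.7, 28.8 and 27.4 CPM (0.54 ± 0.12, adjusted p = 0.019), *Vldlr* from 85.0, 96.6 and 100.1 to 115, 143 and 118 CPM (0.41 ± 0.10, adjusted p = 0.024), and *Slc3a2* fell from 406, 505 and 494 to 322, 352 and 372 CPM (-0.42 ± 0.10, adjusted p = 0.027). These 3 calls were each lost in at least 1 of the alternatives, and with quantile normalization 5 members rose and 0 fell. With the replicate block 7 rose and 1 fell, and with the block within each time 9 rose and 2 fell. Without *shId1* replicate 2 the count was 2 and without *shScr* replicate 2 it was 3. *Atf4* was at 372, 468 and 442 against 406, 391 and 432 CPM, with overlap (-0.06 ± 0.15, adjusted p = 0.87), *Trib3* at 11.2, 28.0 and 27.5 against 20.0, 21.5 and 26.9 CPM (0.14 ± 0.36, adjusted p = 0.87), and *Chac1* at 10.3, 19.4 and 18.4 against 25.6, 24.6 and 28.7 CPM, without overlap but not past the threshold (0.74 ± 0.24, adjusted p = 0.089). *Asns* (233, 328 and 308 against 263, 301 and 321 CPM) and *Mthfd2* (96.2, 122 and 112 against 107, 106 and 129 CPM) overlapped between the groups.

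The effect of silencing differed between 24 h and 0 h for 6 members, 4 upward and 2 downward, against 3.92% and 3.59% of all genes (7.51% in either direction). It was more positive at 24 h for *Cth*, at 69.9, 65.7 and 56.6 CPM in *shScr* and 54.3, 44.5 and 52.9 CPM in *shId1* at 0 h (difference 1.93 ± 0.21, adjusted p = 0.0016), for *Slc7a11*, at 14.0, 19.5 and 15.9 against 15.3, 12.6 and 13.4 CPM at 0 h (difference 1.39 ± 0.19, adjusted p = 0.0032), for *Mthfd2* (difference 0.86 ± 0.21, adjusted p = 0.029) and for *Slc3a2*, at 258, 274 and 291 against 340.0, 354 and 317 CPM at 24 h (difference 0.72 ± 0.14, adjusted p = 0.013). It was less positive for *Gpt2*, at 215, 232 and 207 against 232, 198 and 199 CPM at 24 h (difference -1.10 ± 0.24, adjusted p = 0.02), and for *Psat1*, at 560.3, 585 and 537 against 587, 627 and 642 CPM at 24 h (difference -0.92 ± 0.19, adjusted p = 0.014). Both subunits of the cystine importer and the cysteine-releasing enzyme were among the 4 with the more positive effect. Of the 6 calls, *Mthfd2* kept its own in 16 of 25 alternatives, *Gpt2* in 21 and the others in all 25. With the replicate block 11 members passed and with the block within each time 14. Without *shScr* 0 h replicate 1 the count was 11 and without *shScr* 24 h replicate 3 it was 10.

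The response to calcium was then compared within each arm. In *shScr* 14 members rose and 9 fell, against 30.6% and 30.1% of all genes (60.7% in either direction), and 12 rose and 4 fell more than 2-fold, against 10.9% and 7.97%. In -dox 20 rose and 10 fell, against 37.6% and 38.3% (75.9% in either direction), and 11 rose and 1 fell more than 2-fold, against 14.8% and 15.9%. In both control arms stress genes were among those that rose most. *Ddit4* went from 19.1, 14.2 and 19.6 to 155, 328 and 449 CPM in *shScr* (3.98 ± 0.33, adjusted p = 1.2e-06) and had group means of 51.2 and 371 CPM in -dox (2.85 ± 0.14, adjusted p = 1.8e-10). *Nupr1* went from 15.6, 9.77 and 9.22 to 80.4, 99.5 and 99.6 CPM in *shScr* (2.99 ± 0.38, adjusted p = 2.9e-05) and from 62.6, 43.3 and 56.6 to 147, 165 and 143 CPM in -dox (1.49 ± 0.18, adjusted p = 2.9e-06). *Ppp1r15a* went from 11.5, 10.7 and 11.5 to 28.4, 32.4 and 38.6 CPM in *shScr* (1.51 ± 0.12, adjusted p = 6.4e-07) and by 2.29 ± 0.10 in -dox. For all 3 the 24 h libraries lay above the 0 h libraries in both arms. *Chac1* rose by 1.70 ± 0.24 in *shScr* and 2.91 ± 0.13 in -dox, and *Trib3* by 1.28 ± 0.36 and 2.33 ± 0.12. *Eif4ebp1* went from 72.3, 113 and 123 to 148, 251 and 321 CPM in *shScr* (1.19 ± 0.29, adjusted p = 0.0036), with 1.73 ± 0.11 in -dox, and *Sesn2* from 17.9, 22.0 and 19.7 to 39.7, 45.5 and 53.6 CPM (1.19 ± 0.12, adjusted p = 5e-06), with 1.17 ± 0.12 in -dox. The amino acid and folate genes went both ways. *Aldh1l2* rose from a mean of 1.51 to 9.17 CPM in *shScr* (2.30 ± 0.26, adjusted p = 1.1e-05). In -dox it rose from 1.54 to 3.87 CPM (1.09 ± 0.21, adjusted p = 0.00023). Rises in 1 arm included *Gpt2* and *Psat1* in *shScr* and *Psph* and *Asns* in -dox. Others fell in both arms. *Shmt1* went from 92.6, 67.6 and 68.3 to 23.6, 24.5 and 23.6 CPM in *shScr* (-1.64 ± 0.14, adjusted p = 1.4e-06) and from 55.3, 68.0 and 65.9 to 25.8, 20.5 and 19.5 CPM in -dox (-1.51 ± 0.15, adjusted p = 2.7e-07). *Cth* changed by -1.70 ± 0.15 and -0.98 ± 0.15, reading *shScr* first, *Slc1a5* by -1.21 ± 0.19 and -0.77 ± 0.14, with library values of 33.0, 23.5 and 22.9 against 10.8, 9.70 and 12.5 CPM in *shScr*, and *Phgdh* by -1.03 ± 0.15 and -0.37 ± 0.14, with 199, 217 and 215 against 89.6, 99.0 and 121 CPM in *shScr*. The summed suprabasal markers were at 600 to 761 CPM in *shScr* and 842 to 1030 CPM in -dox at 0 h, and at 1663 to 2733 and 1893 to 2175 CPM at 24 h. The sum hides a difference between the arms. All 7 of these markers rose more than 2-fold in *shScr* (median log2 fold change 2.47). In -dox 3 of the 7 rose and 3 fell (median 0.20). Mitochondrially encoded genes went from 2.27 to 2.45% of the CPM at 0 h to 2.29 to 2.95% at 24 h in *shScr*, from 3.20 to 3.47% to 0.838 to 0.908% in -dox and from 2.84 to 3.03% to 0.953 to 1.33% in +dox. The part of this in the responses was not tested.

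The control arms did not respond alike. The difference of their calcium responses, -dox minus *shScr*, passed for 22 members, 14 higher and 8 lower, against 23.1% and 29.7% of all genes (52.8% in either direction), and the experiments used different viruses, so the source of this difference cannot be told apart from the experiment. The share of mitochondrially encoded genes given above fell in -dox and not in *shScr*, and *Postn* went from 96.1 to 136 CPM at 0 h to 23.2 to 31.5 CPM at 24 h in -dox and from 8.21 to 13.7 to 20.4 to 32.9 CPM in *shScr* (difference -3.17 ± 0.43, adjusted p = 4.9e-06). For 4 of the 7 suprabasal markers the response was also lower in -dox than in *shScr*, and 3 did not pass. The median difference over the 7 was -2.25, against -0.07 over all genes. The part of these in the difference of the members was not tested. *Gpt2* rose in *shScr* from 44.7, 63.7 and 69.2 to 215, 232 and 207 CPM and fell in -dox from 190.2, 161 and 182 to 126, 129 and 137 CPM (difference -2.34 ± 0.19, adjusted p = 1.3e-08). *Psat1* rose by 1.17 ± 0.13 in *shScr* and was at 397, 402 and 384 CPM in -dox at 24 h (difference -1.32 ± 0.17, adjusted p = 2.3e-06). *Vldlr* rose from 85.0, 96.6 and 100.1 to 201, 219 and 213 CPM in *shScr* and was at 194, 144 and 163 against 118, 131 and 141 CPM in -dox (difference -1.52 ± 0.20, adjusted p = 3.8e-06). *Atf4* and *Atf5* differed the other way. *Atf4* rose in -dox (1.10 ± 0.10, adjusted p = 9.5e-08) and did not pass in *shScr* (0.23 ± 0.15, adjusted p = 0.19), with a difference of 0.87 ± 0.18, adjusted p = 0.00041. *Atf5* rose in -dox (1.56 ± 0.17, adjusted p = 6.4e-07) and was at 28.3, 50.1 and 53.7 against 36.3, 28.9 and 40.9 CPM in *shScr* (difference 1.84 ± 0.29, adjusted p = 2.1e-05). *Mthfd1l* (143, 142 and 125 against 77.8, 119 and 125 CPM in *shScr*, difference 1.33 ± 0.25, adjusted p = 0.00014), *Mthfd2* (difference 1.24 ± 0.23, adjusted p = 0.00016) and *Aldh18a1* (74.7, 103 and 89.2 against 68.7, 58.7 and 77.0 CPM in *shScr*, difference 1.16 ± 0.17, adjusted p = 1.2e-05) rose in -dox as well, where *Mthfd1l* and *Mthfd2* did not pass in *shScr* and *Aldh18a1* fell. At 0 h these 5 genes had lower group means in -dox than in *shScr*, for example 328 against 427 CPM for *Atf4* and 58.0 against 110.1 CPM for *Mthfd2*, a difference that was not tested.

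**Figure D4:**
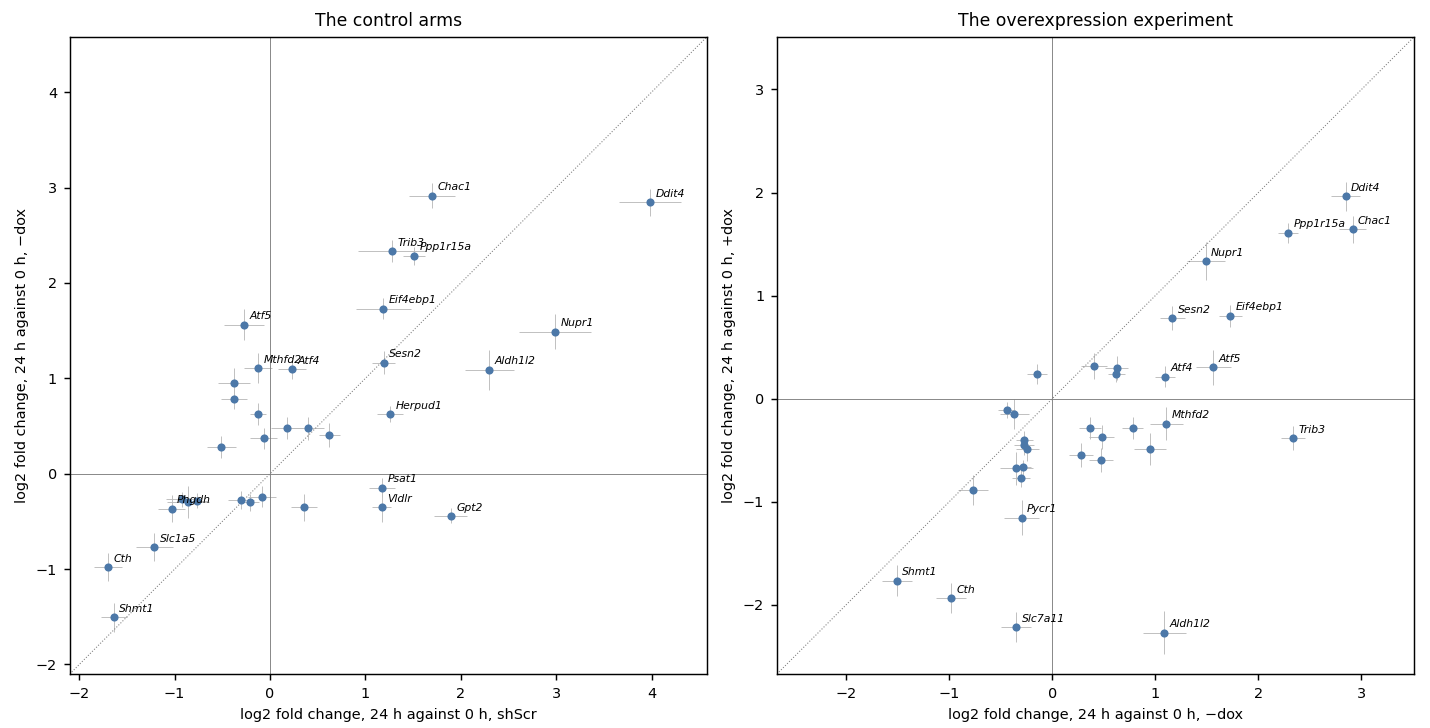
Log2 fold change of the 34 members from 0 h to 24 h in calcium, -dox against *shScr* (left) and +dox against -dox (right), with bars for 1 standard error and a dotted line of equal change. *Gpt2*, *Psat1* and *Vldlr* rise in *shScr* and not in -dox, and *Aldh1l2* and *Trib3* rise in -dox and fall in +dox.

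In the treated arms the responses were as follows. In *shId1* 20 members rose and 4 fell, against 29.5% and 28% of all genes (57.5% in either direction), and 10 rose and 1 fell more than 2-fold, against 9.38% and 6.2%. With quantile normalization 18 rose and 7 fell. *Slc7a11* rose (1.75 ± 0.14, adjusted p = 1.4e-06), as did *Atf4* (0.93 ± 0.15, adjusted p = 0.0002) and *Trib3* (2.17 ± 0.36, adjusted p = 0.00028), and *Herpud1* went from 94.3, 108 and 104 to 232, 257 and 222 CPM (1.21 ± 0.13, adjusted p = 1.4e-05) beside 64.8, 82.2 and 83.7 against 152, 191 and 213 CPM in *shScr* (1.26 ± 0.13, adjusted p = 7.4e-06). *Shmt1* fell from 86.1, 63.7 and 69.1 to 24.4, 23.3 and 27.9 CPM (-1.51 ± 0.14, adjusted p = 4.3e-06). In +dox 10 rose and 19 fell, against 35.6% and 39.1% of all genes (74.7% in either direction), and 4 rose and 5 fell more than 2-fold, against 10.1% and 14.9%. The median log2 fold change in +dox was -0.33, against 0.44 in -dox. *Aldh1l2* (-2.27 ± 0.21, adjusted p = 2.2e-07), *Slc7a11* (-2.21 ± 0.14, adjusted p = 5.9e-09), *Cth* (-1.94 ± 0.15, adjusted p = 2.7e-08), *Shmt1* (-1.77 ± 0.15, adjusted p = 8.5e-08) and *Pycr1* (-1.15 ± 0.17, adjusted p = 1.8e-05) fell more than 2-fold. *Ddit4* (1.96 ± 0.14, adjusted p = 1.7e-08), *Chac1* (1.64 ± 0.13, adjusted p = 5.5e-08), *Ppp1r15a* (1.61 ± 0.10, adjusted p = 2.6e-09) and *Nupr1* (1.34 ± 0.18, adjusted p = 1.1e-05) rose more than 2-fold. Of these 9, the amino acid and folate genes fell and the stress genes rose. Among smaller changes the split did not hold, since the stress genes *Trib3* (-0.38 ± 0.12, adjusted p = 0.0085) and *Ddit3* (-0.37 ± 0.12, adjusted p = 0.0096) fell and the amino acid genes *Got1* (0.30 ± 0.11, adjusted p = 0.026) and *Psat1* (0.24 ± 0.10, adjusted p = 0.038) rose, *Psat1* turning negative with quantile normalization.

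Gene lists around the module were described beside it. Over all genes 20.5% rose and 13.8% fell with doxycycline at 0 h, 10.6% and 10.9% at 24 h, 7.9% and 6.72% with silencing at 24 h, and 4.03% rose with silencing at 0 h. Of 20 cytosolic aminoacyl-tRNA synthetases, several of which ATF4 raises, 11 rose and 1 fell with doxycycline at 0 h and 5 rose with silencing at 24 h. Those with the lowest p at 0 h were *Cars* (0.87 ± 0.10, adjusted p = 9.6e-06), *Wars* (0.76 ± 0.09, adjusted p = 2.4e-05) and *Sars* (0.64 ± 0.08, adjusted p = 3.8e-05), and at 24 h of silencing *Gars* (0.55 ± 0.09, adjusted p = 0.0018) and *Cars* (0.46 ± 0.10, adjusted p = 0.011). Of 12 other targets of ATF4 and CHOP 7 rose and 1 fell with doxycycline at 0 h and 1 rose and 7 fell at 24 h. The difference between these effects passed for 7, all negative, against 10.5% of all genes in either direction and 8.08% downward. *Jdp2*, a repressor of the AP-1 family, rose at both times (2.85 ± 0.18, adjusted p = 4e-08 and 1.23 ± 0.18, adjusted p = 0.00029), *Atf3* rose at 0 h (1.56 ± 0.16, adjusted p = 3.1e-06) and fell at 24 h (-0.78 ± 0.16, adjusted p = 0.0028), and *Klhl24*, an E3 ligase adaptor for keratin 14, fell at 0 h (-1.64 ± 0.26, adjusted p = 0.00027). Endoplasmic reticulum chaperones and sensors of the ATF6 and XBP1 branches rose for 11 of 22 and fell for 0 with doxycycline at 0 h, *Pdia6* with the lowest p (0.62 ± 0.08, adjusted p = 3.7e-05), and 6 rose with silencing at 0 h, *Hspa5* first (0.59 ± 0.11, adjusted p = 0.0073). The 12 genes of eIF2, its kinases, its exchange factor and its phosphatase complex had 0 that rose and 2 that fell with doxycycline at 0 h, *Eif2b1* (-0.36 ± 0.09, adjusted p = 0.0054) and *Eif2ak1* (-0.33 ± 0.08, adjusted p = 0.0067). Both counts of 0 in these lists, from limma, were also 0 at an unadjusted p under 0.05, and by edgeR with 1 library of +dox. Of 22 other amino acid and folate enzymes 4 rose and 7 fell, of 8 other amino acid transporters 1 rose and 1 fell, and of 12 targets of NRF2, the regulator of antioxidant genes that also raises *Slc7a11*, 3 rose and 4 fell, *Osgin1* (means of 44.4 and 21.8 CPM, adjusted p = 4e-05) and *Gclc* (-0.84 ± 0.12, adjusted p = 7.2e-05) downward. The rises in these 3 lists are near the share over all genes. The falls are above the 13.8% of all genes for the enzymes and the NRF2 targets. Of these enzymes and targets 50% and 58.3% passed in either direction, against 34.3% of all genes.

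Within groups the members varied together to a modest degree. After removing group means, the median correlation between pairs of members was 0.134 over the 24 libraries, against -0.003 for pairs of all genes, and 21.0% of member pairs were over 0.5, against 12.5%. *Trib3* (0.453), *Atf4* (0.425) and *Chac1* (0.423) had the highest median correlation with the other members and *Shmt1* (-0.193) the lowest. It was 0.241 in the shRNA experiment, where the replicates numbered 1 stand apart, and 0.094 in the overexpression experiment. These points share libraries, so the values are a description.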

How the data were processed

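Poly(A) RNA of primary mouse epidermal progenitors was measured in 24 libraries. Column names matched sample titles for 18, and the 6 named H2BGFP were assigned to *shScr* by elimination. The authors mapped reads to GRCm38 (bcl2fastq 2.19.1.403 for base calls) and deposited a normalized signal per gene, scaled by TMM in edgeR. It is titled FPKM but holds CPM of a TMM-scaled library, not divided by length. Divided by the worth of 1 read, values were whole to within 0.05. The worth could be checked in 18 libraries, and only those entered count tests (1 to 3 per group). Depth was 21442371 to 35720140 reads. The sample titles call the replicates biological. Nothing in the sources used here says whether they were separate cultures or animals, so what the spread behind the p-values covers is not known.

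The 12 libraries of each experiment (all 24 for the difference of the controls) were fitted on log2(value + 0.5) by limma 3.58.1 (R 4.3.3), with a variance trend and robust moderation, two-sided. The filter asked for a value of at least 1 in 3 libraries. A gene passed at a Benjamini-Hochberg adjusted p under 0.05, and the count with over 2-fold is given beside. The fit was tested on simulated data, where a 2-fold difference between effects was missed for part of the genes, so a member that did not pass an interaction may still differ. The limit for that check was set after this was seen. The members and gene lists were chosen with earlier results of these data known. Members past 2-fold in a comparison or past 0.05 in an interaction are given by library in the comparisons they concern, others by means and counts, and from each other list up to 4 members with the lowest adjusted p.

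Same-numbered *shScr* and *shId1* libraries deviated together at 0 h (r of 0.706, 0.181 and 0.364) and at 24 h (0.707, 0.326 and 0.297), which is a hint from the data, so blocked counts stand beside the silencing results. Alternatives were other pseudocounts, filters and scalings, the block, array weights, other sets of libraries, edgeR 4.0.16 on recovered reads, and each library left out. Added after seeing the data were the block within each time and array weights estimated gene by gene, since the default estimate did not converge.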

Additional observations from a re-analysis of the deposited data

Results flagged for a closer look

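Each value here is a difference between effects on the log2 scale that passed the test of the difference itself (limma, adjusted p under 0.05). The test for 1 outlying sample was not run on single genes, since groups held 3 libraries.

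With doxycycline, the effect at 24 h minus the effect at 0 h was -3.36 for *Aldh1l2*, -2.71 for *Trib3*, -1.86 for *Slc7a11*, -1.44 for *Mthfd1l*, -1.35 for *Mthfd2*, -1.27 for *Chac1*, -1.26 for *Atf5*, -1.07 for *Psph* and -1.06 for *Aldh18a1*. These 9 differed by more than 2-fold. It was -0.95 for *Cth*, -0.92 for *Eif4ebp1*, -0.88 for *Ddit4*, -0.88 for *Atf4*, -0.86 for *Pycr1*, -0.85 for *Ddit3*, -0.83 for *Shmt2*, -0.68 for *Ppp1r15a*, -0.65 for *Asns*, -0.47 for *Xpot* and -0.38 for *Slc3a2*. *Pycr1* kept its call in 14 of 23 alternatives, *Slc3a2* in 15, *Xpot* in 16 and each other member in 22 or 23.

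With silencing, the same difference was 1.93 for *Cth*, 1.39 for *Slc7a11*, 0.86 for *Mthfd2*, 0.72 for *Slc3a2*, -0.92 for *Psat1* and -1.10 for *Gpt2*. *Mthfd2* kept its call in 16 of 25 alternatives and *Gpt2* in 21.

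The response to calcium in -dox minus that in *shScr* was above 0 for *Atf5* (1.84), *Mthfd1l* (1.33), *Mthfd2* (1.24), *Chac1* (1.22), *Aldh18a1* (1.16), *Trib3* (1.06), *Atf4* (0.87), *Shmt2* (0.79), *Ppp1r15a* (0.78), *Got1* (0.75), *Cth* (0.72), *Phgdh* (0.67), *Slc7a1* (0.65) and *Slc3a2* (0.49). It was below 0 for *Gpt2* (-2.34), *Vldlr* (-1.52), *Nupr1* (-1.50), *Psat1* (-1.32), *Aldh1l2* (-1.21), *Ddit4* (-1.14), *Slc7a11* (-0.71) and *Herpud1* (-0.64). *Trib3* kept its call in 15 of 24 alternatives, *Cth* in 22 and each other member in at least 23.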

How the results depend on the processing

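Counts of members that passed are given here under the settings that moved them by over 1.5 times. With silencing at 0 h (5 passing) the count was 8 with the replicate block, 11 with the block within each time, 18 with array weights, 15 with those estimated gene by gene, 8 with edgeR, 10 without the shRNA replicates numbered 1 and 2 over 2-fold. Leaving out each library gave 2 to 5. With silencing at 24 h (12) it was 20 with the block within each time, 25 and 23 with the array weights in that order and 5 over 2-fold, and 11 to 15 with a library left out. For the silencing difference between times (6) it was 11 with the replicate block, 14 with the block within each time, 22 and 18 with array weights, 11 with all 24 libraries, 15 without the replicates numbered 1 and 3 over 2-fold, and 4 to 11 with a library left out. With induction at 24 h (14) it was 28 and 25 with array weights and 0 over 2-fold, and 10 to 20 with a library left out. For the induction difference (20) it was 13 with edgeR and 9 over 2-fold, and 17 to 24 with a library left out. Over 2-fold the counts were 11 for induction at 0 h, 11 for calcium in *shId1*, 12 in -dox, 9 in +dox and 12 for the difference of the controls. Leaving out a library gave 25 to 27 for induction at 0 h, 22 to 25 for calcium in *shScr*, 21 to 25 in *shId1*, 27 to 29 in -dox, 23 to 28 in +dox and 20 to 25 for the difference of the controls. *Psat1* in +dox reversed with quantile normalization, from 0.24 to -0.0662 (adjusted p = 0.54). For both silencing times, their difference and induction at 24 h the default array weights gave the highest count, an estimate that did not converge, and the cause of the other moves was not tested.

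Calls that held in every alternative numbered 18 of 27 for induction at 0 h, 7 of 12 for silencing at 24 h, 2 of 5 for silencing at 0 h, 10 of 14 for induction at 24 h and 11 of 20 for its difference between times. Outside the silencing comparisons at least 1 same-numbered pair of libraries had r under 0.1, so no pairing was assumed there. Between -dox and +dox at 0 h r was 0.274, 0.467 and -0.113 for replicates 1, 2 and 3. These values do not settle whether the libraries were paired. Leaving out a library also leaves fewer samples in the test.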
